A study of Mus musculus with 13 samples.

Results

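The collagen gene family was followed through 5 states of UG26-1B6, a mouse stromal cell clone from the urogenital ridge of midgestation embryos that is used as a feeder for blood stem cells. Members were all genes whose single symbol in the array annotation is Col, a number, a and a number. This gave 42 of the 18193 genes with 1 symbol. They were measured by 82 probe sets, short groups of oligonucleotides on the array, and 27 of the 42 had more than 1. Each gene was read from its probe set with the highest mean over the 13 arrays.

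The groups were stroma before co-culture, collected by trypsin (day 0, n = 3), stroma 24 h after a change of culture medium (medium control, n = 2), and stroma co-cultured with LSK cells for 1 day (n = 3), 2 days (n = 3) or 3 days (n = 2). LSK cells are bone marrow cells that lack lineage markers and carry Sca-1 and c-Kit, a fraction rich in blood stem and progenitor cells. Stroma was grown to confluence on gelatin-coated plates and irradiated with 30 Gy before the LSK cells were added. Irradiation of the day 0 and medium control stroma, and any step that parted stroma from LSK cells before RNA extraction, have no entry in the labels used here. All groups come from a single clone, so they describe that clone. Replicates are biological by the titles and technical by the design text. The p-values therefore cover the spread among these samples and no more.

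Collagens are secreted triple helices that give extracellular matrix its strength. Fibrillar collagens form the cables of connective tissue, with type I as the bulk, type III as a partner and types V and XI inside the fibril. FACIT collagens, which have interrupted helices, decorate fibril surfaces. Type IV collagen forms the network of basement membranes, the sheets under epithelium and around vessels, and is made from 6 chains encoded by gene pairs that lie head to head. Type VI forms beaded filaments around cells, type VIII a hexagonal network, type VII the anchoring fibrils of skin, and types XV and XVIII, the multiplexins, bridge basement membranes to the matrix beyond. In bone marrow, stromal collagens are part of the niche in which blood stem cells reside.

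Upstream sequence is shown for the genes on which the tests below turn, Col11a1 and Col4a6, and for the region around the starts of the Col4a1 and Col4a2 pair. It was copied from RefSeq promoter windows on build GRCm38.p6, which held 33 of the 42 genes in 36 windows. Capitals mark a CCAAT box (CCAAT or its reverse complement ATTGG) or a GC box (GGGCGG or CCGCCC), and the capital stretches do not overlap. Col11a1 lies on chr3:114030390-114030539, plus strand, and Col4a6 on chrX:141474077-141474226, minus strand. Both stretches are the 150 bases before the annotated start. The Col4a1 stretch, placed at bases -157 to -128 from its start to show the CCAAT box, is chr8:11312954-11312983, minus strand. The Col4a2 stretch, the last 30 bases before its start, is chr8:11312775-11312804, plus strand.
Col11a1: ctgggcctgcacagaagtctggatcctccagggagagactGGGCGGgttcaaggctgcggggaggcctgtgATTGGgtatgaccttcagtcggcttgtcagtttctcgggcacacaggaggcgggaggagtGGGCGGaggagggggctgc
Col4a6: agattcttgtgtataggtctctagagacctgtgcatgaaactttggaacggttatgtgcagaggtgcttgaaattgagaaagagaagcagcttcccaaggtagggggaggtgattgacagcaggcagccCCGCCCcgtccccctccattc
Col4a1: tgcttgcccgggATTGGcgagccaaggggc
Col4a2: aatttgttggcgctgccccctcccctcggc
In the 250 bases before the start, 21 of the 36 collagen windows held a GC box (58.3%), against 32.7% of 32851 mouse windows of that length. CCAAT boxes were in 36.1% of collagen windows and 33.8% of all windows, and a TATA box (TATAAA or TTTATA) in 13.9% and 12.4%. Annotated starts of Col4a1 and Col4a2 are 21 bases apart on opposite strands, and those of Col4a5 and Col4a6 are 1343 bases apart.

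Levels are deposited log2 values, in which a difference of 1 is a doubling, and run from 2.28, the lowest value, to 15.74. Probe sets differ in how well they bind, so levels were compared between groups for a gene and never between genes. The lowest value was shared by 31.7% to 44.5% of probe sets on an array. Of 12 stromal markers, 9 were above a level of 5 on 12 arrays and 6 on LSK day 2 replicate 1. That array stood apart in other measures too. It had 15 of 20 blood cell markers above 5, against 1 or 2 at day 0 and in the medium control and 6 to 10 on the other co-culture arrays. Its Gapdh 3' minus 5' probe set difference, which grows with RNA degradation or short amplification products, was 8.96, against 5.79 on LSK day 3 replicate 2 and at most 3.82 on the other arrays. Counts of called collagens and many differences are therefore given with and without it, also for comparisons that reach it only through the shared estimate of spread. Counts at an unadjusted p and of groups that do not overlap use all arrays unless stated. LSK day 2 replicate 2, kept in the fits without replicate 1, was also shifted over all genes. Of genes with a mean above 3, 35.8% were over 2-fold below day 0 on it, against 48.1% on replicate 1 and at most 22% elsewhere. Its share of probe sets at the lowest value was 36.1%, against 31.7% on replicate 1 and at least 40.6% elsewhere.

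Of the 42 collagens, 30 passed a low-value filter, a level above 2.38 on at least 2 arrays, and 20 of these had a mean above 3. The rest were at or near the lowest value. Col4a3 and the cartilage growth plate collagen Col10a1 stayed within 0.1 of their lowest value on all 13 arrays, as did Col17a1, a hemidesmosome collagen of skin, and Col25a1. A further 8 exceeded 2.38 on at most 1 array: Col2a1, the main fibril of cartilage, and Col24a1, Col6a5, Col8a2, Col9a1, Col15a1, Col19a1 and Col26a1. Col15a1, the other multiplexin beside Col18a1, had its highest value of 2.55 on LSK day 1 replicate 3 and read 2.31 or 2.32 on the other 12 arrays. For Col24a1 (4.69), Col8a2 (3.41) and Col19a1 (3.33), the highest value was on LSK day 2 replicate 1, and every other array read at most 2.33. The 10 that passed with a mean of at most 3 were Col11a1, Col11a2, Col5a3, Col13a1, Col23a1, Col4a4, Col6a4, Col14a1, Col22a1 and Col9a2.

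By class, 6 of 11 fibrillar, 4 of 6 type IV, 3 of 5 type VI and 4 of 9 FACIT genes had a mean above 3, and so did Col8a1 (1 of 3 hexagonal network genes), Col7a1 and Col18a1 (1 of 2 multiplexins). None of the 4 transmembrane collagens, Col13a1, Col17a1, Col23a1 and Col25a1, did. The map of deviations from day 0 shows the 20 genes on each array.

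**Figure D1:**
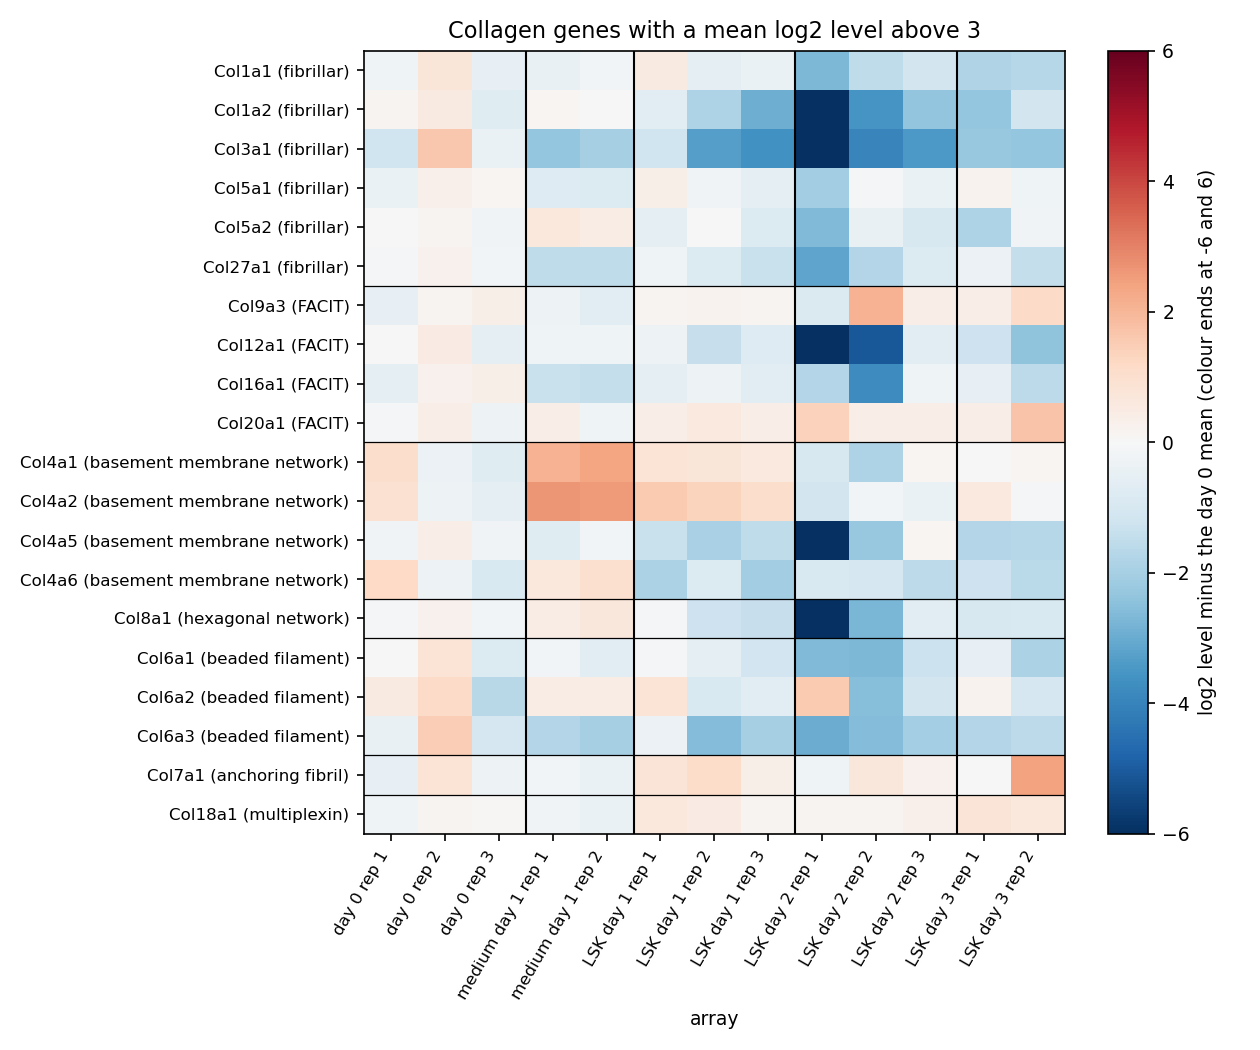
Rows are the 20 collagen genes with a mean log2 level above 3, ordered by class, and columns are the 13 arrays. Colour gives the log2 level minus the gene's day 0 mean, with blue below, red above and the scale ending at -6 and 6. Blue cells gather on LSK day 2 replicates 1 and 2 among the fibrillar genes, Col12a1 and Col8a1, and the darkest red of the medium control lies on Col4a1 and Col4a2.

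Among the basement membrane genes, Col4a1 and Col4a2, the chains found in nearly all basement membranes, were highest in the medium control, and Col4a6 was lower with LSK cells on day 1 than in that control. Col4a1 read 11.44, 9.99 and 9.66 at day 0, 12.47 and 12.73 in the medium control, 11.20, 11.09 and 10.97 on LSK day 1, 9.40, 8.49 and 10.47 on LSK day 2 and 10.38 and 10.46 on LSK day 3. Both medium control arrays lay above every other array. Col4a2 read 8.58, 7.37 and 7.07 at day 0, 10.32 and 10.21 in the medium control, 9.25, 9.02 and 8.74 on LSK day 1, 6.59, 7.51 and 7.28 on LSK day 2 and 8.24 and 7.56 on LSK day 3. Its medium control arrays were again above all others, and its LSK day 1 arrays lay above day 0 and below the medium control without overlap.

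The tests on this pair were close to the threshold. Col4a2 differed among the 5 groups (limma F test, adjusted p = 0.0255 with all arrays and 0.017 without LSK day 2 replicate 1). Its medium control was 2.59 ± 0.45 (SE) above day 0, with adjusted p = 0.0574 with all arrays and 0.0278 without LSK day 2 replicate 1. Leaving out day 0 replicate 1 gave 0.013, and leaving out either medium control array gave 0.505 and 0.409. For Col4a1 the same difference was 2.24 ± 0.60 (adjusted p = 0.208, and 0.121 without LSK day 2 replicate 1). From the medium control to LSK day 1, Col4a1 differed by -1.51 ± 0.60 and Col4a2 by -1.26 ± 0.45, neither past the threshold (adjusted p = 0.183 and 0.146). A lower-reading Col4a1 probe set averaged 7.10, 9.24, 8.81, 6.80 and 7.30 over the 5 groups, again with its highest mean in the medium control. Its LSK day 1 replicate 1, at 9.43, was above both medium control arrays (9.13 and 9.35). Its LSK day 1 minus medium control difference was -0.43, so it did not show the separation of these groups seen with the first. Of 5 endothelial markers, Pecam1, Cdh5 and Emcn were at 2.28 on every array, and Tek was above 5 on day 0 replicate 2 alone. Kdr, a VEGF receptor, averaged 6.28 at day 0, 10.41 in the medium control and 8.87, 7.22 and 6.85 on LSK days 1, 2 and 3, and so was highest in the same group as Col4a1 and Col4a2. The summed level of the 5 was 15.5 to 19.9 at day 0, 19.5 to 19.6 in the medium control, 17.7 to 18.3 on LSK day 1, 11.7 to 19.3 on day 2 and 15.4 to 16.6 on day 3, and its part in the collagen differences was not tested.

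Col4a5 and Col4a6, a second head to head pair, encode chains that share a trimer in smooth muscle and some epithelial basement membranes. Col4a6 read 6.49, 5.01 and 4.38 at day 0, 5.92 and 6.25 in the medium control, 3.38, 4.49 and 3.23 on LSK day 1, 4.38, 4.27 and 3.71 on LSK day 2 and 4.04 and 3.66 on LSK day 3. The medium control did not overlap with any co-culture group, and day 0 reached from above the medium control down to the co-culture values. LSK day 1 minus the medium control was -2.38 ± 0.59 (adjusted p = 0.0492, and 0.0309 without LSK day 2 replicate 1), so Col4a6 was called lower. Its second probe set averaged 2.77, 4.06, 2.34, 2.37 and 2.34 over the groups, with the medium control highest. The call was lost without either medium control array (adjusted p = 0.255 and 0.306), without any LSK day 1 array (0.0815 to 0.151), and without day 0 replicate 2 (0.073), LSK day 2 replicate 2 (0.0519) or either LSK day 3 array (0.0598). It was also lost with no filter (0.087), quantile normalization (0.0895), centred arrays (0.112), a trended robust prior (0.0552), the replicate block (0.0866) and a filter at 3 (at the threshold), and held in 9 of 24 alternatives.

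Col4a5 read 11.84, 12.48 and 11.87 at day 0, 11.34 and 11.89 in the medium control, 10.72, 10.13 and 10.54 on LSK day 1, 3.32, 9.79 and 12.19 on LSK day 2 and 10.30 and 10.35 on LSK day 3. LSK days 1 and 3 lay below day 0 without overlap, and LSK day 2 ran from the lowest of the 13 arrays to above 2 of the day 0 arrays. With that spread in the fit, LSK day 1 minus day 0 was -1.60 ± 1.74 (adjusted p = 0.774). Leaving out LSK day 2 replicate 1 gave -1.60 ± 0.53 (adjusted p = 0.0912), and without both LSK day 2 replicates 1 and 2 adjusted p was 0.00749. A second Col4a5 probe set averaged 8.99, 8.79, 7.24, 6.29 and 7.21 over the 5 groups. Its LSK day 2 arrays (2.53, 8.26 and 8.09) all lay below day 0, unlike those of the first. Col4a4 passed the filter only through LSK day 2 replicates 1 and 2 (2.61 and 2.82). In bulk RNA, a smaller share of stromal RNA in a sample and less collagen RNA per stromal cell cannot be told apart.

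**Figure D2:**
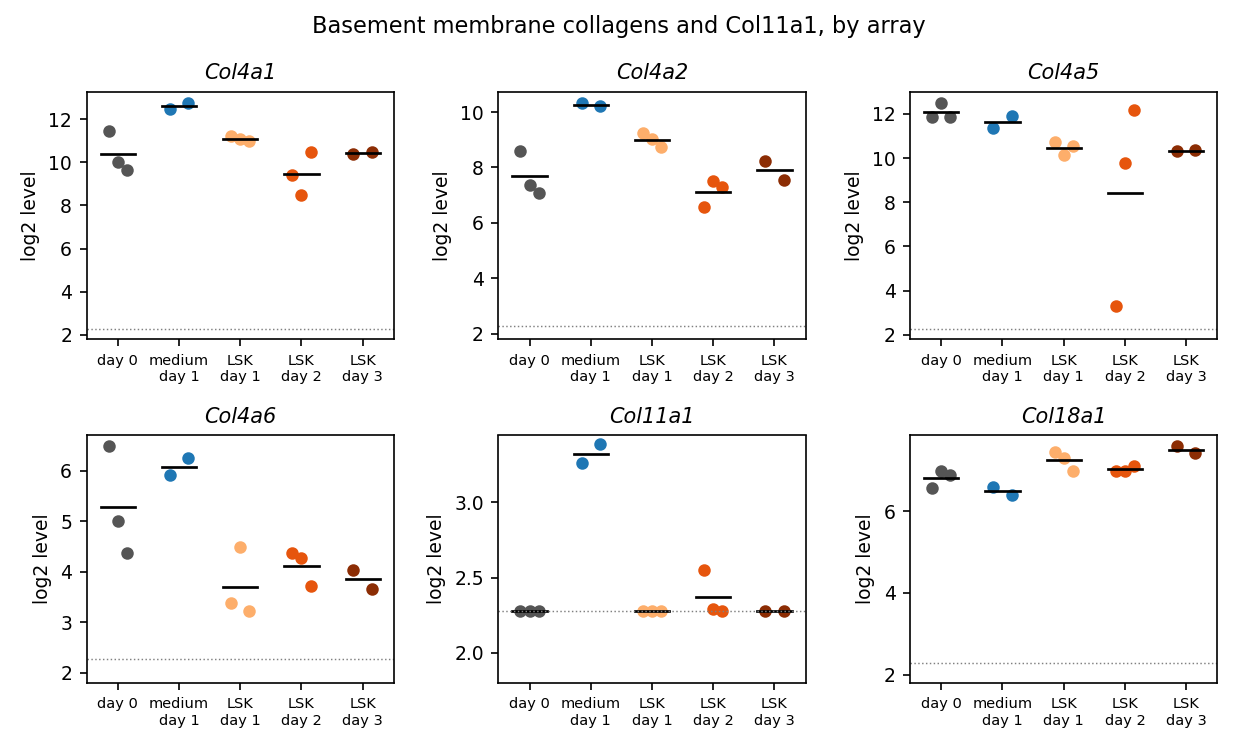
Log2 level by array for Col4a1, Col4a2, Col4a5, Col4a6, Col11a1 and Col18a1 in the 5 groups, with a bar at each group mean and a dotted line at the lowest value of 2.28. Medium control arrays are the highest for Col4a1, Col4a2 and Col11a1, a single LSK day 2 array of Col4a5 lies at 3.32, and axes differ between genes.

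Among the fibrillar genes, only Col11a1, a chain of the minor type XI fibril, passed the test with all arrays. It read 2.28 on all day 0, LSK day 1 and LSK day 3 arrays, 3.26 and 3.39 in the medium control, and 2.55, 2.29 and 2.28 on LSK day 2. The medium control was thus the sole group with both or all arrays off the lowest value. Col11a1 rose by at least 1.04 ± 0.16 from day 0 to the medium control (adjusted p = 0.0362, and 0.0068 without LSK day 2 replicate 1). LSK day 1 minus the medium control was at most -1.04 ± 0.16 (adjusted p = 0.0135, and 0.0024 without that array). Col11a1 exceeded the filter value on 3 arrays, the 2 of the medium control and LSK day 2 replicate 1, so it was tested only because it was high in the medium control. With no filter, over 18193 genes, the adjusted p values from limma were 0.000886 and 0.000622. That fit adds genes above 2.38 on at most 1 array. Such genes have little spread and enter the moderated variances, so its smaller p values are not read as support. Both sizes are lower bounds, because day 0 and LSK day 1 sat at the lowest value. A second Col11a1 probe set stayed at the floor in every group, with means of 2.28 to 2.31, and so did not show the difference.

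Col11a1 also differed among the 5 groups (adjusted p = 0.0278, and 0.00503 without LSK day 2 replicate 1). With Col4a2 it was 1 of 2 collagens called by the F test, where 3.64% of all genes were called. Without LSK day 2 replicate 1 there were 3, with Col18a1 (adjusted p = 0.0483), against 14.9%. Since Col11a1 passed the filter through its medium control arrays, nothing is read from these F test counts. The F test called 0 collagens without day 0 replicate 2, either medium control array or any LSK day 1 array, 1 without day 0 replicate 3, and 11 without LSK day 2 replicate 3, where 24.1% of all genes were called. The call against day 0 was lost without day 0 replicate 2 or 3 (adjusted p = 0.116 and 0.109), either medium control array (0.307 and 0.372) or any LSK day 1 array (0.0834 to 0.0969), and also with a filter at a level of 3 (0.185), the replicate block (0.173) and arrays centred on the median of measured probe sets (0.668). The call against LSK day 1 was lost without either medium control array (0.132 and 0.148) or any LSK day 1 array (0.0502 to 0.06), and with centred arrays (0.327). These calls held in 14 and 18 of 24 alternatives. Identical values at the floor carry no spread of their own.

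The means of Col1a1, Col1a2, Col3a1, Col5a1 and Col5a2 were below day 0 on each LSK day, with differences from -5.10 to -0.03, and none of these differences passed the test with all arrays. Col1a1, a chain of type I collagen, read 8.85, 9.85 and 8.62 at day 0, 8.66 and 8.93 in the medium control, 9.64, 8.55 and 8.70 on LSK day 1, 6.43, 7.58 and 8.02 on LSK day 2 and 7.29 and 7.38 on LSK day 3. All LSK day 2 and day 3 arrays lay below all arrays of the other 3 groups. LSK day 3 minus day 0 was -1.77 ± 0.53 (adjusted p = 0.176). With LSK day 2 replicate 1 left out it was -1.77 ± 0.42 (adjusted p = 0.0421), the only collagen called between day 0 and LSK day 3 in that fit. Leaving out other single arrays gave adjusted p values of 0.104 to 0.412. A second, low-reading Col1a1 probe set averaged 3.41, 4.72, 3.09, 3.12 and 3.01 over the groups and so gave a higher medium control, unlike the first.

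Col1a2, the other type I chain, read 10.82, 11.21 and 9.92 at day 0, 10.79 and 10.65 in the medium control, 9.97, 8.82 and 7.71 on LSK day 1, 3.71, 7.09 and 8.29 on LSK day 2 and 8.32 and 9.55 on LSK day 3. The day 0 and medium control arrays overlapped, and LSK days 2 and 3 lay below both. Col1a2 was -4.29 ± 1.05 on LSK day 2 relative to day 0 (adjusted p = 0.0654). Leaving out LSK day 2 replicate 1 gave -2.96 ± 0.70 (adjusted p = 0.0663). On LSK days 1 and 3 it was -1.82 ± 1.05 and -1.71 ± 1.17 (adjusted p = 0.44 and 0.596). Its second probe set averaged 10.71, 9.97, 7.57, 5.84 and 8.22, the same order of the co-culture groups against day 0.

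Col3a1, the partner of type I in soft tissue, read 10.77, 13.60 and 11.58 at day 0, 9.68 and 10.01 in the medium control, 10.78, 8.67 and 8.37 on LSK day 1, 4.09, 8.04 and 8.53 on LSK day 2 and 9.69 and 9.68 on LSK day 3. Day 0 was the highest group, with a single LSK day 1 array reaching it, and the medium control was also below day 0 without overlap. The difference from day 0 was -2.14 ± 1.32 in the medium control, -2.71 ± 1.18 on LSK day 1, -5.10 ± 1.18 on LSK day 2 and -2.30 ± 1.32 on LSK day 3. The adjusted p values were 0.747, 0.277, 0.0567 and 0.493, and without LSK day 2 replicate 1 they were 0.266, 0.0625, 0.0677 and 0.149, with a day 2 difference of -3.70 ± 0.88. With the filter at a level of 3, the LSK day 2 difference passed (adjusted p = 0.0479).

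Type V collagen is known to set the width of type I fibrils. Col5a1 read 11.04, 11.78 and 11.56 at day 0, 10.69 and 10.66 in the medium control, 11.81, 11.23 and 10.92 on LSK day 1, 9.39, 11.36 and 11.05 on LSK day 2 and 11.67 and 11.18 on LSK day 3. Its co-culture arrays overlapped with day 0 on each day, and the medium control was lower than day 0 without overlap (-0.79 ± 0.54, adjusted p = 0.801). The further Col5a1 probe sets differed more from day 0. A second averaged 9.64, 8.96, 8.99, 6.47 and 8.17 over the 5 groups, and another 5.97, 5.57, 5.19, 4.42 and 4.30. On LSK days 2 and 3 the difference from day 0 was -0.86 and -0.03 for the probe set used, -3.17 and -1.47 for the second and -1.55 and -1.67 for the other. Col5a2 read 12.93, 13.11 and 12.73 at day 0, 13.55 and 13.35 in the medium control, 12.33, 12.88 and 12.12 on LSK day 1, 10.28, 12.47 and 11.95 on LSK day 2 and 11.06 and 12.71 on LSK day 3. For this chain the medium control was the highest group, whereas that of Col5a1 lay below day 0, and LSK days 2 and 3 lay below day 0. Col5a2 minus day 0 was 0.53 ± 0.64 in the medium control and -1.35 ± 0.57 on LSK day 2 (adjusted p = 1 and 0.173). The day 2 difference was -0.71 ± 0.44 (0.353) without replicate 1. Col5a3 read 4.06, 2.94 and 2.34 on LSK day 2 and 2.29 to 2.62 on the other 10 arrays.

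Col27a1, a fibrillar collagen of cartilage and its growth plate, read 5.74, 6.07 and 5.65 at day 0, 4.31 and 4.28 in the medium control, 5.58, 5.02 and 4.48 on LSK day 1, 2.64, 4.07 and 5.02 on LSK day 2 and 5.48 and 4.39 on LSK day 3. Every array of the other 4 groups was below every day 0 array. The medium control differed by -1.53 ± 0.62 (adjusted p = 0.461) and LSK day 2 by -1.91 ± 0.56 (adjusted p = 0.0897), or by -1.27 ± 0.43 (0.135) without replicate 1. Col11a2 was between 2.28 and 3.54 throughout. Over the 6 fibrillar genes with a mean above 3, the difference from day 0 was below 0 for all 6 on LSK days 1, 2 and 3, with medians of -0.63, -1.83 and -1.38. Without LSK day 2 replicate 1 the day 2 median was -1.29, so which of days 2 and 3 was lower turned on that array. Under other scalings Col1a1 on day 1 and Col5a1 on days 1 and 3 changed sign, so the direction of those small differences depends on the scaling. In the medium control 4 of the 6 were below 0 (median -0.55).

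**Figure D3:**
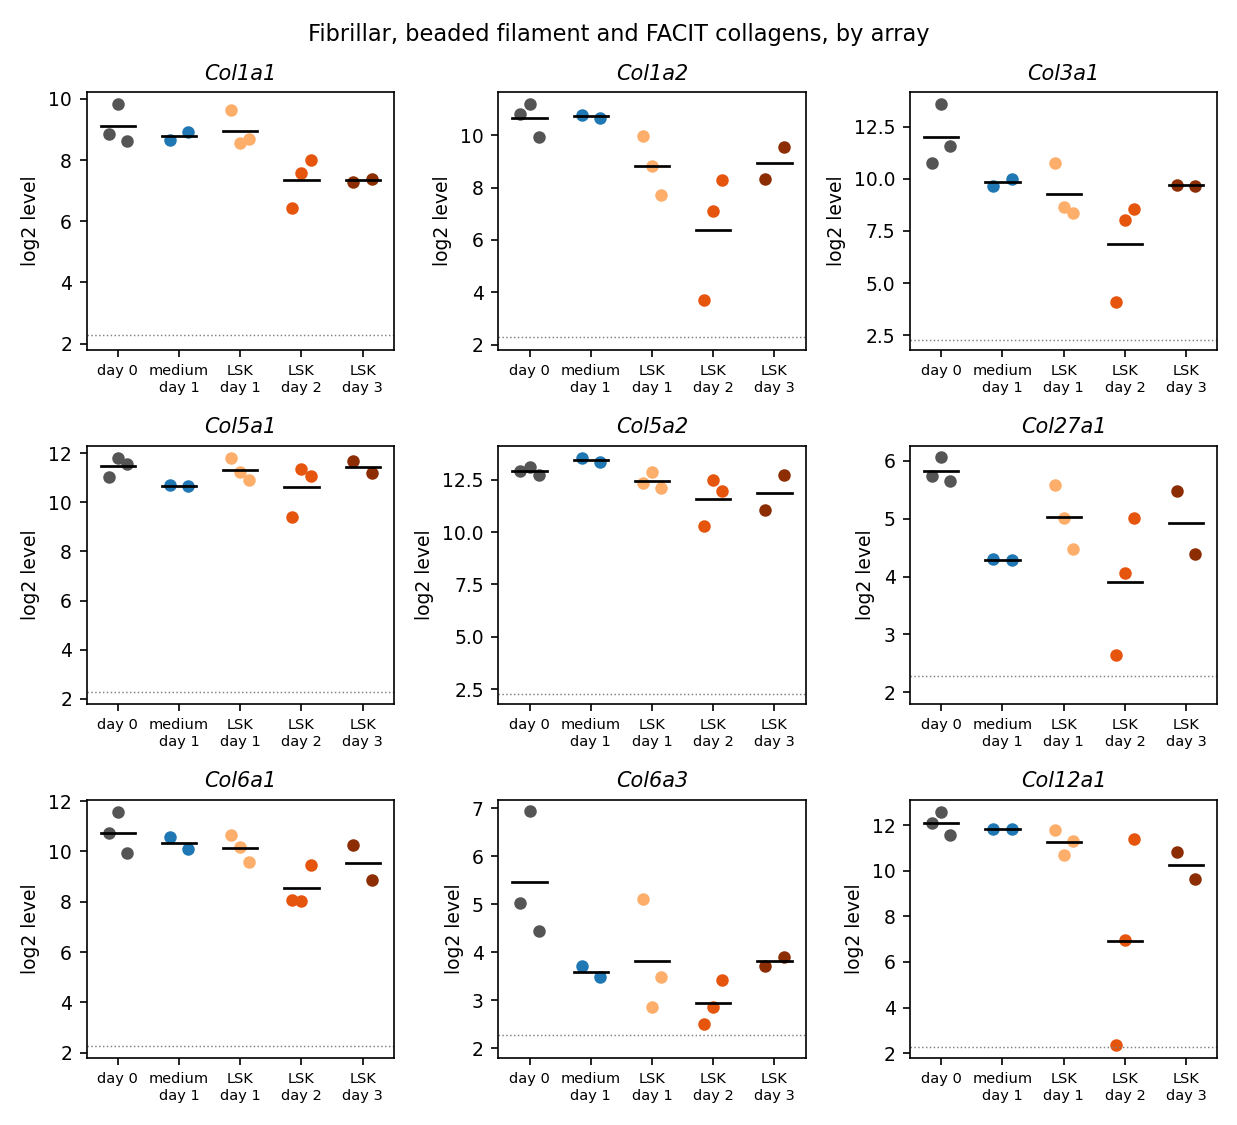
Log2 level by array for Col1a1, Col1a2, Col3a1, Col5a1, Col5a2, Col27a1, Col6a1, Col6a3 and Col12a1 in the 5 groups, with a bar at each group mean and a dotted line at the lowest value of 2.28. LSK day 2 arrays spread most, with Col12a1 at 2.35, 6.98 and 11.39, and axes differ between genes.

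The type VI genes encode chains of one trimer, and all 3 with a mean above 3 were below day 0 on average on each LSK day, with no call. Col6a1 read 10.74, 11.58 and 9.92 at day 0, 10.57 and 10.08 in the medium control, 10.65, 10.19 and 9.60 on LSK day 1, 8.09, 8.04 and 9.46 on LSK day 2 and 10.26 and 8.85 on LSK day 3. Only its LSK day 2 arrays were all below day 0 (-2.22 ± 0.57, adjusted p = 0.0705, and -2.00 ± 0.64 with 0.121 without LSK day 2 replicate 1). Col6a3 read 5.03, 6.94 and 4.45 at day 0, 3.71 and 3.48 in the medium control, 5.11, 2.86 and 3.48 on LSK day 1, 2.51, 2.86 and 3.43 on LSK day 2 and 3.71 and 3.91 on LSK day 3. The medium control and LSK days 2 and 3 lay below day 0 without overlap. Col6a3 minus day 0 was -1.88 ± 0.77 in the medium control and -2.54 ± 0.69 on LSK day 2 (adjusted p = 0.466 and 0.0787). The day 2 difference was -2.33 ± 0.79 (0.139) without LSK day 2 replicate 1.

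Col6a2 read 8.11, 8.72 and 5.91 at day 0, 8.02 and 8.01 in the medium control, 8.42, 6.66 and 6.90 on LSK day 1, 9.17, 5.04 and 6.50 on LSK day 2 and 7.81 and 6.59 on LSK day 3. Its day 0 arrays alone spanned most of the range, and no group stood apart. LSK day 2 replicate 1 was the highest array for Col6a2 and among the lowest for its partners Col6a1 and Col6a3. On LSK day 2 the Col6a2 difference from day 0 was -0.68 ± 1.06, and -1.81 ± 0.89 without that array (adjusted p = 0.683 and 0.256). Its day 2 difference turned positive when arrays were centred. Col6a4 was between 2.28 and 3.04.

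Among FACIT collagens, Col12a1, which binds type I fibrils, showed the widest range. It read 12.10, 12.59 and 11.55 at day 0, 11.82 and 11.82 in the medium control, 11.77, 10.71 and 11.30 on LSK day 1, 2.35, 6.98 and 11.39 on LSK day 2 and 10.83 and 9.66 on LSK day 3. LSK day 2 replicate 1 was near the floor, replicate 2 was intermediate, and replicate 3 was level with LSK day 1. The LSK day 2 difference from day 0 was -5.17 ± 1.73 (adjusted p = 0.114), and -2.90 ± 1.07 (0.16) without replicate 1. A second Col12a1 probe set averaged 8.60 at day 0 and 6.09 on LSK day 2.

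Col16a1 averaged 9.45 ± 0.51 (SD, n = 3) at day 0, 8.06 ± 0.08 (n = 2) in the medium control, 8.91 ± 0.20 (n = 3) on LSK day 1, 7.52 ± 1.77 (n = 3) on LSK day 2 and 8.41 ± 0.77 (n = 2) on LSK day 3. Its lowest array was LSK day 2 replicate 2, at 5.67. Col9a3, a type IX chain of cartilage fibrils, averaged 5.55 ± 0.45, 5.08 ± 0.21, 5.74 ± 0.04, 6.07 ± 1.48 and 6.34 ± 0.52 over the same groups. Col20a1 averaged 4.46 ± 0.37, 4.54 ± 0.45, 4.92 ± 0.10, 5.20 ± 0.57 and 5.51 ± 0.93. Col20a1 had its highest mean on LSK day 3, and Col9a3 on day 3 with all arrays but on day 2 (6.77 ± 1.19, n = 2) without LSK day 2 replicate 1. Neither was called on day 3 against day 0 (adjusted p = 0.705 for Col9a3 and 0.333 for Col20a1). Col14a1 was above 2.38 on day 0 replicates 1 and 2 alone (2.98 and 5.15) and read 2.28 on all 10 medium control and co-culture arrays.

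Col8a1, a short-chain collagen of vessel walls and the cornea, averaged 10.13 ± 0.21 (SD, n = 3) at day 0, 10.69 ± 0.16 (n = 2) in the medium control, 9.21 ± 0.68 (n = 3) on LSK day 1, 6.76 ± 3.11 (n = 3) on LSK day 2 and 9.20 ± 0.02 (n = 2) on LSK day 3. Its LSK day 2 arrays read 3.39, 7.39 and 9.51, all below day 0, and the difference was -3.37 ± 1.20 (adjusted p = 0.129), or -1.68 ± 0.58 (0.142) without replicate 1. A second Col8a1 probe set averaged 5.64, 6.91, 6.55, 4.79 and 5.31 over the 5 groups. Its LSK day 1 arrays lay above day 0 (0.91, against -0.92 for the one used) and overlapped with the medium control. Col7a1 averaged 6.90 ± 0.70, 6.62 ± 0.16, 7.64 ± 0.38, 7.13 ± 0.46 and 8.11 ± 1.73, with its highest array, 9.33, on LSK day 3 replicate 2. No Col7a1 difference was called.

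Col18a1, whose tail releases endostatin, was above day 0 on average on each LSK day, unlike most collagens with a mean above 3. The same was true of Col7a1, Col9a3 and Col20a1. It read 6.56, 6.98 and 6.88 at day 0, 6.60 and 6.39 in the medium control, 7.45, 7.31 and 6.98 on LSK day 1, 6.98, 6.98 and 7.12 on LSK day 2 and 7.59 and 7.42 on LSK day 3. All co-culture arrays lay above both medium control arrays. LSK day 1 was 0.75 ± 0.21 above the medium control (adjusted p = 0.0736), and 0.75 ± 0.19 without LSK day 2 replicate 1 (0.0317). Leaving out other single arrays gave 0.0581 to 0.413, and the mean of all Col18a1 probe sets, with all arrays kept, gave 1.13 (0.0311). A second probe set averaged 5.85, 5.37, 6.89, 6.34 and 5.93, again lowest in the medium control and higher on LSK day 1.

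The medium control was compared with day 0, from which it differed by 24 h and a change of medium. Irradiation has no entry for either group and trypsin is named for day 0, so other differences between them cannot be told apart. Of 30 collagens tested, 1 was called, Col11a1, which was higher, where 0.338% of 12141 genes were called and 0.231% were higher. Since Col11a1 was among the 30 only through its medium control arrays, nothing is read from this count. Without LSK day 2 replicate 1 there were 2, Col11a1 and Col4a2, both higher, against 1.36% of all genes (0.774% higher). At an unadjusted p under 0.05 there were 5, Col11a1, Col4a1 and Col4a2 higher and Col27a1 and Col6a3 lower, against 9.47% of all genes. Both of these counts include Col11a1, so the same limit holds for them. Among the 20 with a mean above 3, the groups did not overlap for 4 that were higher, Col4a1, Col4a2, Col5a2 and Col8a1, and 5 that were lower, Col3a1, Col5a1, Col16a1, Col27a1 and Col6a3. Over all genes with a mean above 3 those shares were 23.3% and 25.9%. The median difference of the 20 was -0.30, against -0.02 for all 10179 such genes.

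LSK day 1 was compared with the medium control of the same age. Of 30 collagens, 2 were called, Col11a1 and Col4a6, both lower, where 5.21% of all genes were called and 3.06% were lower. In the fit that left out LSK day 2 replicate 1 there were 3, with Col18a1 added as higher, against 17.4% (7.67% higher and 9.69% lower). Col11a1 was among the 30 only through its medium control arrays, so nothing is read from either count. All 4 type IV genes with a mean above 3 had a difference between -2.38 and -1.15, with a median of -1.38, and Col4a6 alone passed. Among the 20, arrays did not overlap for 8 that were lower (Col4a1, Col4a2, Col4a5, Col4a6, Col1a2, Col5a2, Col8a1 and Col12a1) and 6 that were higher (Col5a1, Col27a1, Col9a3, Col16a1, Col7a1 and Col18a1), against 36.4% and 35.3% of all genes with a mean above 3. The median of the 20 was -0.37, against 0.01 for those genes. A fit on the 5 compared arrays alone called 8 collagens and 37.8% of all genes, and limma called 0 collagens when any of those 5 arrays was left out of the fit over all groups.

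Against day 0, limma called none of the 30 collagens on LSK day 1, 2 or 3, where 1.99%, 2.13% and 0.791% of all genes were called. These 3 comparisons share the day 0 arrays, as does that of the medium control. At an unadjusted p under 0.05 there were 5, 10 and 4 collagens, against 17.3%, 26.4% and 13.8% of all genes. Without LSK day 2 replicate 1 the called collagens numbered 0, 0 and 1 (Col1a1), against 10.7%, 2.48% and 7.74%, with 4.56% lower in the last. All 10 with an unadjusted p under 0.05 on LSK day 2 were lower (Col1a1, Col1a2, Col3a1, Col5a2, Col27a1, Col6a1, Col6a3, Col8a1, Col12a1 and Col16a1).

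Among the 20 genes with a mean above 3, 14 were below day 0 on LSK day 1, 16 on day 2 and 14 on day 3, with medians of -0.51, -1.56 and -0.98. For all genes with a mean above 3 the medians were -0.03, -0.54 and -0.10. Leaving out LSK day 2 replicate 1 made the day 2 medians -1.29 for the collagens and -0.25 for all genes. Arrays did not overlap with day 0 for 2 of the 20 that were lower on LSK day 1, 9 on day 2 and 10 on day 3, against 24.6%, 18.7% and 23.8% of all genes with a mean above 3. Those that were higher without overlap numbered 1 (Col4a2), 0 and 2, against 20.6%, 7.14% and 15.9%. The 10 on day 3 were Col1a1, Col1a2, Col3a1, Col5a2, Col27a1, Col4a5, Col4a6, Col6a3, Col8a1 and Col12a1. The 2 that were higher on day 3 were Col9a3 and Col18a1. Centring the arrays moved the median difference of all genes tested by 0.15, 0.77 and 0.20 on LSK days 1, 2 and 3 (from -0.30 to 0.48 on day 2), and then the collagen medians were -0.36, -0.79 and -0.78, with 12, 14 and 13 of the 20 below 0.

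**Figure D4:**
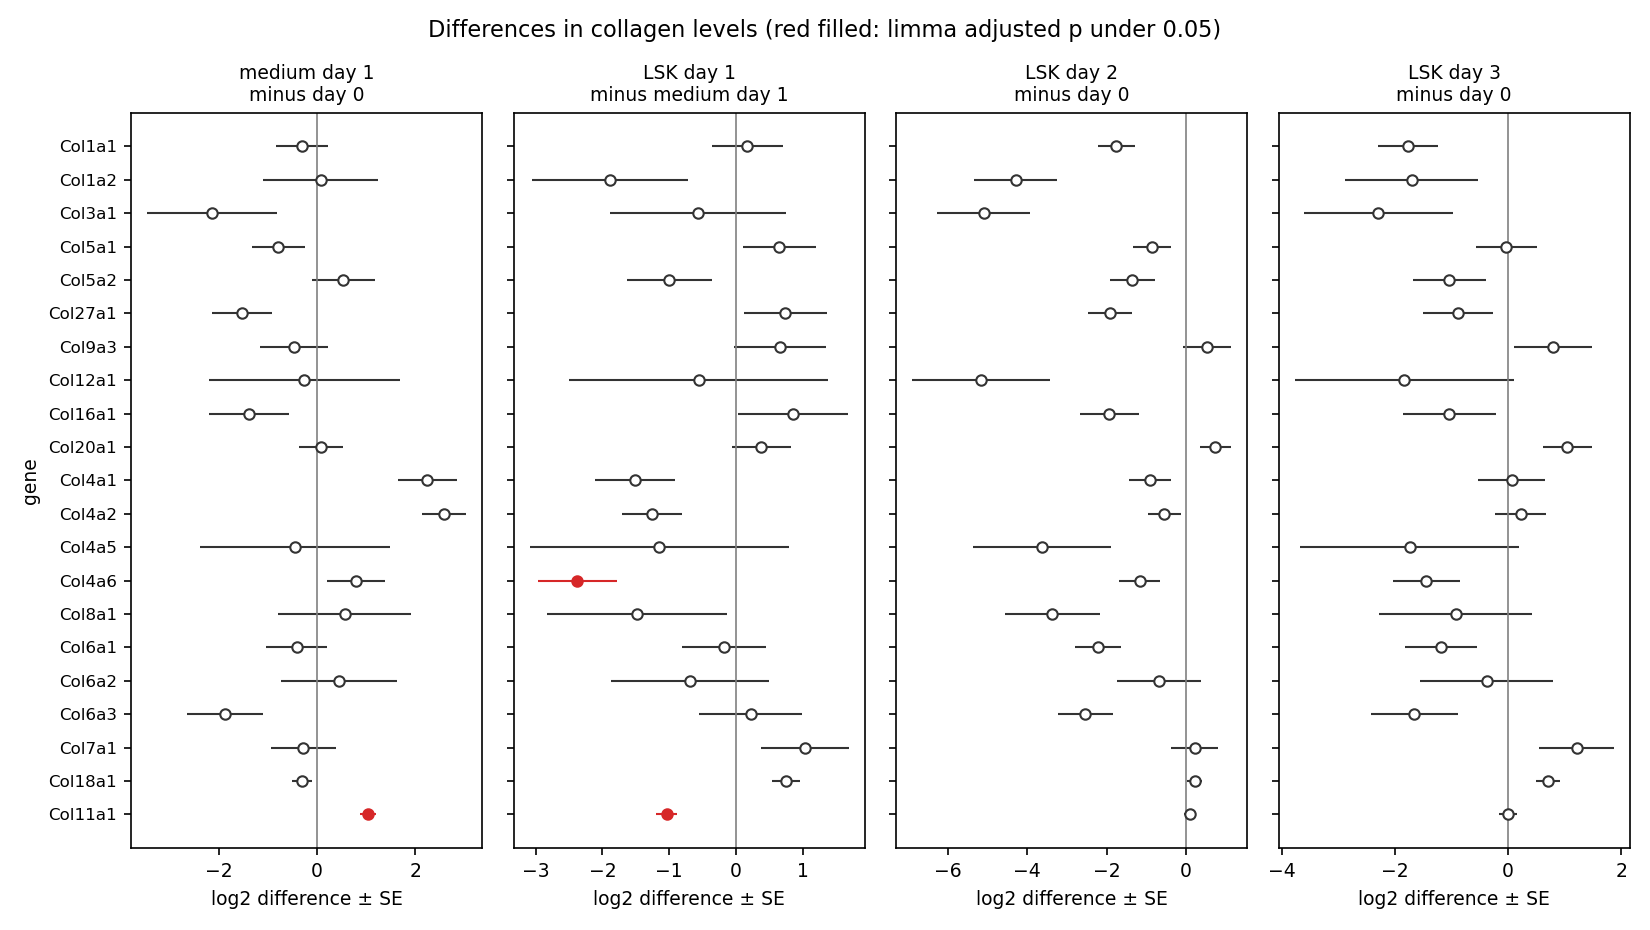
Log2 differences with SE from the fit over all 13 arrays, for the 20 collagen genes with a mean above 3 and Col11a1, in 4 comparisons, with a separate x axis in each. Red filled points, Col11a1 in the first panel and Col4a6 and Col11a1 in the second, had an adjusted p under 0.05, and open points did not.

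The LSK day 2 counts turned on replicate 3. Leaving it out, with replicates 1 and 2 kept, called 11 of 30 collagens against day 0, where 28.9% of all genes were called, and leaving out replicate 1 called 0. The 11 were Col1a1, Col1a2, Col3a1, Col27a1, Col4a5, Col6a1, Col6a3, Col8a1, Col12a1 and Col16a1, all lower, and Col5a3, which was higher. Their largest difference was -7.41, for Col12a1 (adjusted p = 0.00252). On that replicate 3 the median of the 20 genes relative to day 0 was -0.66, against -2.36 and -1.81 on replicates 1 and 2, and the median of all genes was 0, -0.89 and -0.47 in that order. Between LSK days, limma called no collagen for day 2 or day 3 against day 1, where 0.00824% of genes were called in each. Without LSK day 2 replicate 1 the collagen counts were also 0, against 0.00824% and 0.222%. At an unadjusted p under 0.05 there were 6 and 2, all lower, against 12.7% and 2.91% of all genes. Leaving out LSK day 2 replicate 3 called 8 for day 2, against 15.5% of all genes. Among the 20 genes, arrays did not overlap for 4 that were lower on day 2 than on day 1 and 3 that were lower on day 3, against 11.6% and 13.4% of genes with a mean above 3. For higher genes the counts were 0 and 1 (Col9a3), against 2.59% and 8.14%.

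Values of other cells, of control RNAs and of RNA quality also differed among the arrays. The summed log2 level of the 20 blood cell markers was 60.6 to 61.1 at day 0, 58.9 to 59.5 in the medium control, 75 to 88.5 on LSK day 1, 97.3 to 172.1 on LSK day 2 and 111.6 to 127.1 on LSK day 3. LSK day 2 replicate 2 had a sum of 97.3, a Gapdh difference of 3.11 and a collagen median of -1.81 relative to day 0. For LSK day 2 replicate 3 these were 102.3, 2.93 and -0.66. Of all genes with a mean above 3, 35.8% on replicate 2 and 8.44% on replicate 3 were over 2-fold below day 0. Ptprc, the pan-leukocyte CD45, was at 2.28 on all day 0 and medium control arrays, and Itgam was at 2.28 on every array. Poly-A control RNAs of bacterial genes averaged 3.45 to 6.2 at day 0 and in the medium control and 6.99 to 12.91 with LSK cells. The part of all these measures in the collagen differences was not tested. LSK cells were present in the 3 co-culture groups alone, so these measures and co-culture cannot be told apart. In the medium control and at day 0, 1 or 2 blood markers were above 5.

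**Figure D5:**
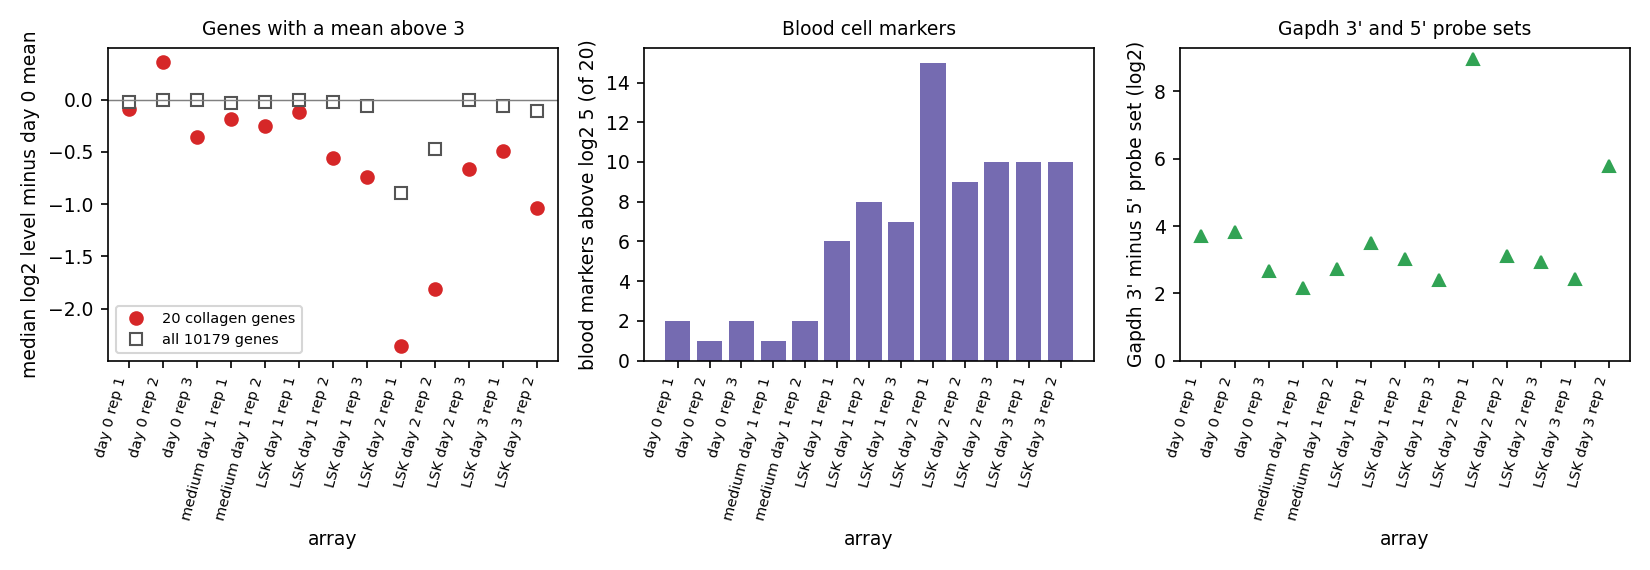
For each of the 13 arrays, the left panel gives the median log2 level minus the day 0 mean for the 20 collagen genes and for all 10179 genes with a mean above 3, the middle panel the number of 20 blood cell markers above a log2 level of 5, and the right panel the log2 difference of Gapdh 3' and 5' probe sets. LSK day 2 replicate 1 has the lowest collagen median (-2.36), the most blood markers (15) and the largest Gapdh difference (8.96).

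Other probe sets of the same genes gave a partial check on the readings. Among the 20 genes, 13 had 16 further probe sets with a mean above 3. Their difference had the same sign as the one used for 10 of 16 in the medium control against day 0, 15, 15 and 16 of 16 on LSK days 1, 2 and 3 against day 0, and 13 of 16 on LSK day 1 against the medium control. The medium control was thus the comparison in which probe sets of a gene disagreed most often against day 0, Col1a1 among them.

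Genes that modify, fold, export, trim and cross-link collagen were read from a list of 34, of which 27 passed the filter, and limma called none in any of the 7 comparisons. At an unadjusted p under 0.05 the count was 0 in the medium control against day 0, 3, 12 and 1 on LSK days 1, 2 and 3 against day 0, and 1 on LSK day 1 against the medium control. Between LSK days it was 16 for day 2 against day 1, all lower, and 0 for day 3. Without LSK day 2 replicate 1 these were 10 and 2, with no share of all genes computed for that fit. With all arrays, the shares of all genes were 9.47% in the medium control against day 0, 17.3%, 26.4% and 13.8% on LSK days 1, 2 and 3 against day 0, 21% on LSK day 1 against the medium control, and 12.7% and 2.91% between LSK days. P4ha3, a prolyl hydroxylase subunit, averaged 3.85 at day 0, 4.78 in the medium control, 5.63 on LSK day 1, 4.70 on LSK day 2 and 5.42 on LSK day 3 (LSK day 1 minus day 0 1.78 ± 0.46, adjusted p = 0.0802). Lox, which cross-links fibrils, averaged 13.50, 14.02, 13.16, 12.30 and 12.84 in the same order. With LSK day 2 replicate 1 left out, Ppib, a chaperone of the prolyl 3-hydroxylation complex, rose on LSK day 1 (0.58 ± 0.12, adjusted p = 0.022) and day 3 (0.56 ± 0.13, 0.0416) against day 0. Plod2, the telopeptide lysyl hydroxylase, fell in that fit (-1.47 ± 0.33 with 0.029 and -2.40 ± 0.37 with 0.0109), and P4ha3 rose on LSK day 1 (0.0326), where that fit called 10.7% of all genes on day 1 and 7.74% on day 3.

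Collagen receptors were listed as 10 genes, of which 6 passed the filter, and again limma called none. At an unadjusted p under 0.05 there were 0 in the medium control against day 0, 2, 1 and 1 on LSK days 1, 2 and 3 against day 0, 2 on LSK day 1 against the medium control, and 0 between LSK days, of 6 genes, against the shares of all genes just given. Ddr2, a receptor kinase for fibrillar collagen, averaged 10.78 at day 0, 10.51 in the medium control, 8.32 on LSK day 1, 7.54 on LSK day 2 and 8.48 on LSK day 3. In the fit that left out LSK day 2 replicate 1 it fell on LSK days 1, 2 and 3 against day 0 (-2.47 ± 0.42, -2.36 ± 0.47 and -2.31 ± 0.47, adjusted p = 0.0121, 0.0431 and 0.0249). Ddr2 was also lower on LSK day 1 than in the medium control (-2.19 ± 0.47, 0.0186). Itga1, the integrin chain that binds type IV collagen, fell in that fit on LSK days 1 and 2 against day 0 (-2.19 ± 0.35 and -2.03 ± 0.39, adjusted p = 0.00963 and 0.0404). Its medium control minus day 0 was -1.52 ± 0.39 (0.103), and LSK day 1 minus the medium control was -0.67 ± 0.39 (0.285). Also in that fit, Itgb1 was lower on LSK day 1 than in the medium control (-1.17 ± 0.22, 0.0125), and Ddr1 and Mrc2, the latter a collagen uptake receptor, were higher (1.51 ± 0.40 with 0.0365 and 1.87 ± 0.48 with 0.0321). Against day 0, Itgb1, Ddr1 and Mrc2 were not called on LSK day 1 (-0.40 ± 0.20, 0.53 ± 0.36 and 0.14 ± 0.43, adjusted p = 0.225, 0.388 and 0.926). That fit called 10.7%, 2.48% and 7.74% of all genes on LSK days 1, 2 and 3 against day 0 and 17.4% on LSK day 1 against the medium control.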

How the data were processed

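RNA of 13 stroma samples was measured on 1-colour Affymetrix arrays. The deposited values are log2 levels, as read from their range; RMA and GCRMA are named per the submitters' processing notes, with no version or role. They were used without rescaling. Of 45101 probe sets, 64 were controls, 34945 had 1 symbol, 932 several and 9160 none. Per gene, the probe set with the highest mean was chosen, then kept if above the pooled median of 2.38 on at least 2 arrays, leaving 12141 genes. Groups follow the sample titles. A linear model of the 13 arrays, with each of the 5 groups as a term, was fitted by limma 3.58.1 (R 4.3.3) with moderated variances, and gave 7 comparisons and an F test. P-values were adjusted by Benjamini and Hochberg's method across all 12141 genes, with a threshold of 0.05. Errors after differences are SE. The fit was tested on simulated data. Figures used Python 3.11.15. Per-array values are given for collagens past the threshold and for a fixed list of major genes. The members, lists, rule for named genes and most alternatives were chosen with earlier results of these data known. Replicate numbers were not taken to pair arrays across groups. The number of arrays limits the precision. Scanner files were not used here.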

Additional observations from a re-analysis of the deposited data

How the results depend on the processing

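The 3 differences called with all arrays (Col11a1 in 2 comparisons, Col4a6 in 1) kept their direction under the 24 alternatives. Col11a1 sat at the lowest value on every day 0 and LSK day 1 array, and Col4a6 did not overlap between its compared groups. Leaving out an array could therefore not reverse these signs, so their constancy is not read as support. Of the others, Col4a5, Col5a3 and Col9a3 on LSK day 2 against day 0 passed under some setting and had the other sign under another. For LSK day 2 against LSK day 1 this held for Col5a3, Col8a1, Col9a3, Col12a1 and Col16a1. Against day 0, Col8a1, Col12a1 and Col16a1 stayed lower on LSK day 2 under every setting. Counts of called collagens follow. For the medium control against day 0 (1 call), a filter at 3, centring and the replicate block gave 0, array weights 9 (29.6% of all genes), and leaving out LSK day 2 replicates 1 and 2, chosen after seeing the data, 2. For LSK day 1 against the medium control (2 calls), no filter, a filter at 3, quantile normalization, a trended robust prior and the replicate block gave 1, centring 0, the mean of all probe sets 3, array weights 15 (52.9% of all genes), leaving out the same pair 5 (24.4%), and the compared arrays alone 8 (37.8%). For LSK day 1 against day 0 (0 calls), array weights gave 7 (29.5%), and leaving out that pair or fitting only the compared arrays 1. For LSK day 2 against day 0 (0 calls), a filter at 3 gave 1, the mean of all probe sets 2 and array weights 8 (20.5%). For LSK day 3 against day 0 (0 calls), leaving out the pair gave 4 (14.4%). For LSK day 2 against day 1 (0 calls), array weights gave 4 (10.1%). The F test (2 calls) gave 1 with a filter at 3, 0 with centring or the replicate block, 15 with array weights (59.9%) and 4 without the pair. Leaving out each array in turn gave 0 to 2 calls for the medium control against day 0, 0 to 0, 0 to 11 and 0 to 1 on LSK days 1, 2 and 3 against day 0, 0 to 3 for LSK day 1 against the medium control, 0 to 8 and 0 to 0 for LSK days 2 and 3 against day 1, and 0 to 11 for the F test. The cause of these shifts was not tested. Same-numbered arrays correlated at -0.371 to 0.261 over 23 pairs, with 8 above 0.1. Arrays with different numbers correlated at -0.38 to 0.381 over 44 pairs, with 12 above 0.1. In groups of 2 arrays the deviations from the group mean mirror each other, so these values cannot settle whether numbers pair samples. No pairing was assumed. Applying the filter before choosing a probe set left every count unchanged. With 2 or 3 arrays a group and values at the floor, small differences of low-reading collagens were not resolvable.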
